A study of Mus musculus with 13 samples.

Results

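Aminoacyl-tRNA synthetases join each amino acid to its tRNA and so supply the ribosome with charged tRNA. Cytosolic protein synthesis and the ribosomes of mitochondria are served by largely separate enzymes, all encoded in the nucleus, and the mitochondrial form of an enzyme carries the suffix 2 in its gene symbol. Several cytosolic enzymes sit together on a scaffold, the multisynthetase complex. Many of their genes are known targets of ATF4, a transcription factor that acts when amino acids run short. Membership was set by a naming rule: probe sets that the platform annotation assigns to 1 gene whose symbol is an amino acid letter followed by ars, with or without 1 or 2, or Farsa, Farsb or Eprs. This gave 72 of 45037 probe sets and 35 of 18193 genes, 19 of them cytosolic and 16 mitochondrial. Gars and Kars, whose products serve both compartments, count as cytosolic under this rule. Where a gene had several probe sets, as 23 of the 35 did, their log2 ratios were averaged.

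The cells were C2C12, an established line of mouse skeletal muscle precursors (myoblasts), for which the labels give no altered gene and no drug. Flasks run in parallel were kept for 24 h in medium with 0.2% fetal bovine serum and then given serum back, and the study sampled RNA every 0.5 h in search of oscillating genes. Times from 0 to 6.0 h were used, each measured on a single array without replicates, 13 arrays in all. By labelled time they formed a 0 h array, an early window (0.5, 1.0, 1.5 and 2.0 h), a middle window (2.5, 3.0, 3.5 and 4.0 h) and a late window (4.5, 5.0, 5.5 and 6.0 h). As far as the files show, each deposited value is a ratio to a reference that belongs to its own probe set. The values show how a gene changed and not how much of it there was. The presence of myoblast markers could for this reason not be read from them, nor can levels be compared between synthetases.

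Neighbouring arrays correlated over all genes at 0.501 to 0.764, with the lowest values between 2.0 and 2.5 h (0.501) and between 4.0 and 4.5 h (0.51), the borders of the middle window. The 5′ control for 18S ribosomal RNA had ratios of 0.411 to 1.40 in the early window and 0.889 to 5.24 in the late window, so it moved in the same direction as the rise described below, and its part in that rise was not tested. The log2 ratio of the 3′ over the 5′ control for 18S was -0.436 to 0.905 in the early, -1.095 to 1.298 in the middle and -1.736 to 0.094 in the late window. For Gapdh the same measure was -0.082 to 0.037 over all arrays and for Actb -0.082 to 0.009. The number of arrays limits the precision of all values. Changes are log2 differences between window means ± standard error from limma, with Benjamini-Hochberg adjustment over all 18193 genes and a threshold of 0.05. The p-values rest on the spread of time points within windows, which mixes technical variation with real change over time, and no p-value measures the spread between replicates.

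Synthetase mRNA rose over the hours after serum was returned, and most cytosolic members took part. From the early to the late window 23 of 35 genes rose and 0 fell, against 11.7% of all genes higher and 9.29% lower (21% called in all). The rise was seen for 16 of 19 cytosolic genes and for 7 of 16 mitochondrial genes. Probe sets of the same gene did not always agree, which limits this contrast. Among genes not called, their lowest correlation was -0.11 for Cars2, -0.06 for Mars2 and -0.04 for Lars2. For the cytosolic Farsa, Qars and Eprs it was -0.55, -0.27 and -0.01. Among called genes it was 0.95 for Aars, 0.98 for Nars and 0.89 for Yars2, but -0.16 for Ears2. The median change was 0.49 for the cytosolic genes, 0.14 for the mitochondrial genes and 0.019 over all genes, and whether both classes differ was not tested. The rises were moderate, from 1.16-fold for Ears2 to 1.80-fold for Yars2. Every late array lay above every early array in 23 of 35 members, a pattern that 14.1% of all genes showed. These were the same 23 genes on the same arrays, so the pattern restates the calls and is no separate support. With a minimum change of 0.5 on the log2 scale 11 genes stayed called (9 cytosolic and 2 mitochondrial), all of them higher, against 5.37% of all genes called and 2.93% higher.

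**Figure D1:**
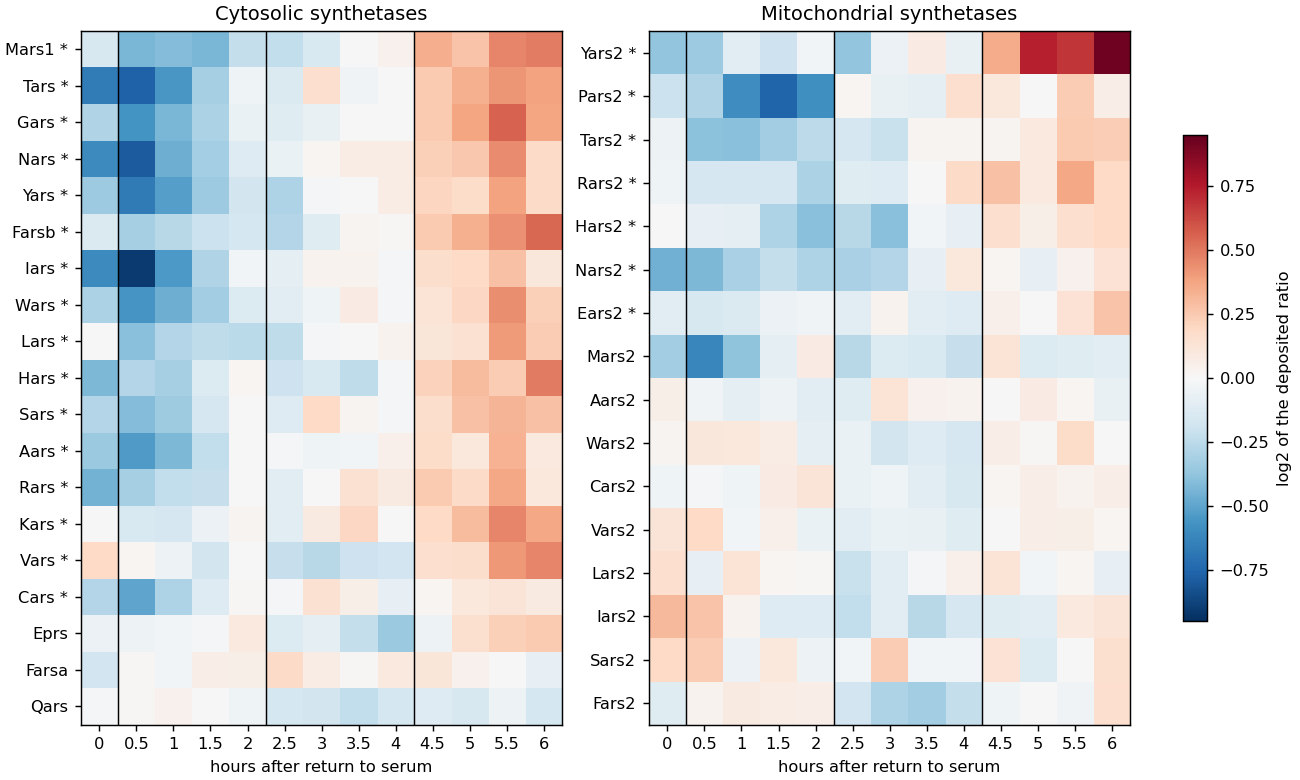
Log2 of the deposited ratio for each synthetase gene (rows, ordered by late minus early change) on the 13 arrays (columns, hours after return to serum), with lines between the 0 h, early, middle and late windows and an asterisk for genes that passed late minus early. In 16 of 19 cytosolic and 7 of 16 mitochondrial genes every late array exceeds every early array, and Qars is the only gene in which every late array is below every early array.

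Window by window, no synthetase was called in the early window against the 0 h array (0 of 35 by limma, against 3.26% of all genes, 1.46% higher and 1.81% lower), and at an unadjusted p under 0.05 the count was 4 of 35, against 19.9% of all genes. Leaving out the 0.5 h array gave 1 call, a fall of Pars2. Between the early and middle windows 11 genes rose and 3 fell, where 7.74% of all genes rose and 14.4% fell (22.2% called). Those that fell were Qars, Fars2 and Wars2. This count of 14 was the least stable one: it was 7 without the 0.5 h array, 6 without 1.0 h, 9 without 3.0 h, 7 without 3.5 h and 7 without 4.0 h. From the middle to the late window 12 genes rose and 0 fell (12.3% of all genes called, 10.3% higher and 2.06% lower). The median log2 ratio of all genes was -0.051 to -0.017 on the middle arrays and 0 on the late ones, the same direction as this rise. The count of 12 was 18 without the 0.5 h array, 18 without 2.0 h, and 8 without 2.5 h, 5.5 h or 6.0 h. The share of all genes called without each of these arrays is not given here. The shifts are therefore not shown to be particular to the synthetases. A smooth curve over all 13 arrays, which uses no windows, passed for 27 of 35 members, 18 cytosolic and 9 mitochondrial, where 38% of all genes passed.

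Averaged over the 19 cytosolic genes, the log2 ratio was -0.26 at 0 h, -0.40 at 0.5 h and -0.30, -0.20 and -0.06 at 1.0, 1.5 and 2.0 h. It was between -0.13 and -0.02 on the middle arrays and was 0.16, 0.20, 0.33 and 0.24 on the late arrays. The 0.5 h array was thus the low point of the average, and 11 of the 19 genes had their own lowest value there, against 12.3% of all genes. In 12 of the 19, each early array was higher than the one before it, against 10.3% of all genes; differences inside the early window count as spread in the fit. The mean of the 16 mitochondrial genes moved less, from -0.05 at 0 h through -0.11 to -0.13 in the early window to between 0.05 and 0.14 in the late window. Of the 16 genes 2 had their lowest value at 0.5 h. Over all 35 members, the 0.5 h array was below the 0 h array in 23 (56.8% of all genes), the lowest array was one of 0 to 2.0 h in 24 (42.6% of all genes) and the highest was a late one in 26 (30.5% of all genes).

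**Figure D2:**
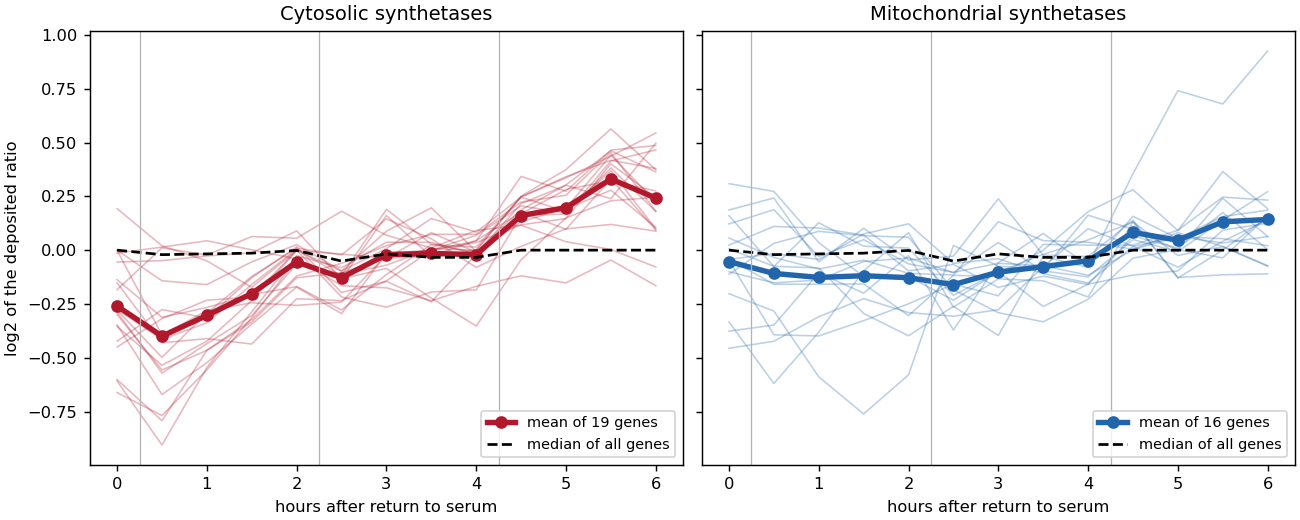
Log2 of the deposited ratio (vertical axis) against hours after return to serum for the cytosolic (left) and mitochondrial (right) synthetases, with 1 thin line per gene, the mean as a thick line and the median of all genes dashed. The cytosolic mean goes from -0.40 at 0.5 h to 0.33 at 5.5 h, and the mitochondrial mean stays between -0.16 and 0.14.

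The largest cytosolic rises were those of the methionyl enzyme, which also charges the initiator tRNA, and of the threonyl, glycyl and asparaginyl enzymes. Mars1 had log2 ratios of -0.15 at 0 h, -0.43, -0.41, -0.44 and -0.23 in the early window, -0.23, -0.14, 0 and 0.04 in the middle window and 0.34, 0.27, 0.46 and 0.49 in the late window. In Tars the log2 ratios were -0.66 at 0 h, -0.77, -0.56, -0.31 and -0.04 early, -0.13, 0.16, -0.03 and 0 in the middle window and 0.25, 0.34, 0.42 and 0.38 late. For Gars the log2 ratio was -0.29 at 0 h, -0.57, -0.43, -0.30 and -0.06 from 0.5 to 2.0 h, -0.11, -0.07, 0.01 and 0 from 2.5 to 4.0 h and 0.25, 0.37, 0.56 and 0.37 from 4.5 to 6.0 h. In each of the 3, all late arrays were above all early and all middle arrays. Mars1 rose from early to late by 0.77 ± 0.07 (adjusted p = 1.97e-05), Tars by 0.77 ± 0.12 (adjusted p = 3.74e-04) and Gars by 0.73 ± 0.09 (adjusted p = 9.25e-05). Tars was also 2.01-fold over the 0 h array in the late window. Nars stood at -0.60 on the 0 h array, at -0.79, -0.46, -0.32 and -0.12 on the 4 early arrays, at -0.06, 0.02, 0.07 and 0.07 on the 4 middle ones and at 0.22, 0.26, 0.45 and 0.18 on the 4 late ones (log2 ratios). For Nars this was a rise of 0.70 ± 0.11 (adjusted p = 3.91e-04), and the late mean was 1.84-fold over 0 h. Both of its probe sets rose, by 0.70 and 0.71.

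The isoleucyl and tryptophanyl enzymes share a class I catalytic core, and that of tryptophan is also known as an interferon-induced protein. Iars had log2 ratios of -0.61 at 0 h, -0.91, -0.55, -0.29 and -0.03 in the early window, -0.08, 0.04, 0.04 and -0.02 in the middle window and 0.16, 0.19, 0.28 and 0.11 in the late window. In Wars the log2 ratios were -0.30 at 0 h, -0.56, -0.47, -0.33 and -0.13 early, -0.10, -0.04, 0.08 and -0.01 in the middle window and 0.13, 0.20, 0.44 and 0.22 late. For Yars the log2 ratio was -0.35 at 0 h, -0.67, -0.52, -0.34 and -0.17 from 0.5 to 2.0 h, -0.30, -0.01, 0 and 0.07 from 2.5 to 4.0 h and 0.21, 0.17, 0.38 and 0.18 from 4.5 to 6.0 h. All 3 genes were lowest at 0.5 h and were higher on each early array than on the one before it. The rises were 0.63 ± 0.13 (adjusted p = 0.00336) for Iars, 0.62 ± 0.09 (adjusted p = 2.16e-04) for Wars and 0.66 ± 0.10 (adjusted p = 3.59e-04) for Yars, which encodes the tyrosyl enzyme. All 4 probe sets of Wars were called, at 0.45 to 0.74. Lars stood at -0.0014 on the 0 h array, at -0.39, -0.28, -0.24 and -0.26 on the 4 early arrays, at -0.24, -0.02, 0 and 0.04 on the 4 middle ones and at 0.12, 0.15, 0.40 and 0.24 on the 4 late ones (log2 ratios). Rars had log2 ratios of -0.45 at 0 h, -0.32, -0.23, -0.22 and 0 in the early window, -0.10, 0.01, 0.15 and 0.08 in the middle window and 0.25, 0.18, 0.37 and 0.10 in the late window. The leucyl enzyme, which also takes part in leucine sensing, rose by 0.52 ± 0.07 (adjusted p = 2.17e-04) and the arginyl enzyme by 0.42 ± 0.08 (adjusted p = 0.00157). For both, the late arrays lay above the early ones without overlap, and Lars was higher at 0 h than on any early array.

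The alanyl, seryl and cysteinyl enzymes also rose from early to late. In Aars the log2 ratios were -0.35 at 0 h, -0.54, -0.42, -0.23 and -0.002 early, -0.02, -0.04, -0.03 and 0.04 in the middle window and 0.18, 0.10, 0.33 and 0.09 late. For Sars the log2 ratio was -0.28 at 0 h, -0.41, -0.34, -0.16 and 0.0043 from 0.5 to 2.0 h, -0.12, 0.19, 0.03 and -0.01 from 2.5 to 4.0 h and 0.17, 0.28, 0.32 and 0.28 from 4.5 to 6.0 h. Cars stood at -0.28 on the 0 h array, at -0.50, -0.29, -0.12 and 0.01 on the 4 early arrays, at -0.02, 0.15, 0.05 and -0.08 on the 4 middle ones and at 0.02, 0.10, 0.12 and 0.09 on the 4 late ones (log2 ratios). Aars and Sars rose by 0.47 ± 0.09 (adjusted p = 0.00229) and 0.49 ± 0.09 (adjusted p = 0.00104). Cars rose by 0.31 ± 0.09 (adjusted p = 0.0239), and its highest array was a middle one, at 3.0 h. From middle to late Cars was at 0.06 ± 0.09 (adjusted p = 0.736). The Cars call was lost with 1 probe set per gene and without the 0.5, 1.0, 5.0, 5.5 or 6.0 h array, with an adjusted p of up to 0.0994. Hars had log2 ratios of -0.42 at 0 h, -0.28, -0.32, -0.13 and 0.02 in the early window, -0.20, -0.14, -0.24 and -0.02 in the middle window and 0.22, 0.30, 0.24 and 0.50 in the late window. In Kars the log2 ratios were 0 at 0 h, -0.14, -0.16, -0.05 and 0.03 early, -0.10, 0.09, 0.20 and -0.01 in the middle window and 0.19, 0.30, 0.46 and 0.36 late. The histidyl enzyme rose by 0.49 ± 0.08 (adjusted p = 6.84e-04) and the lysyl enzyme by 0.41 ± 0.07 (adjusted p = 0.00115). Hars had its highest value on the last array. Kars was at the reference value at 0 h, above 3 of its 4 early arrays. For Vars the log2 ratio was 0.19 at 0 h, 0.02, -0.05, -0.17 and 0 from 0.5 to 2.0 h, -0.22, -0.27, -0.19 and -0.18 from 2.5 to 4.0 h and 0.16, 0.17, 0.41 and 0.47 from 4.5 to 6.0 h. The valyl enzyme, which associates with the elongation factor complex that handles charged tRNA, was lowest in the middle window. It rose by 0.35 ± 0.07 (adjusted p = 0.003) from early to late and was then 1.08-fold over the 0 h array, a difference that did not pass.

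Phenylalanyl-tRNA synthetase of the cytosol is built from both an alpha subunit, Farsa, and a beta subunit, Farsb, and the array gave different values for them. Farsb stood at -0.14 on the 0 h array, at -0.31, -0.27, -0.21 and -0.17 on the 4 early arrays, at -0.28, -0.11, 0.03 and 0.01 on the 4 middle ones and at 0.25, 0.34, 0.44 and 0.54 on the 4 late ones (log2 ratios). Farsa had log2 ratios of -0.18 at 0 h, 0.01, -0.02, 0.06 and 0.06 in the early window, 0.18, 0.07, 0.01 and 0.09 in the middle window and 0.12, 0.04, 0.003 and -0.08 in the late window. Farsb rose by 0.63 ± 0.08 (adjusted p = 6.97e-05) with all 4 probe sets called, while Farsa was at -0.01 ± 0.06 (adjusted p = 0.956). The probe sets of Farsa moved apart. One of its 4 probe sets rose by 0.33 ± 0.08 (adjusted p = 0.00957 over all probe sets), with ratios of 0.873, 0.877, 0.992 and 1.068 on the early arrays and of 1.172, 1.16, 1.275 and 1.156 on the late arrays. A second one fell by 0.39 ± 0.12 (adjusted p = 0.0464), and the other 2 were at -0.04 and 0.08. A single direction for Farsa can therefore not be given.

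Eprs and Qars were the other cytosolic genes that did not pass from early to late. In Eprs the log2 ratios were -0.06 at 0 h, -0.05, -0.03, -0.01 and 0.09 early, -0.13, -0.09, -0.22 and -0.35 in the middle window and -0.04, 0.15, 0.23 and 0.25 late. Eprs, a fused enzyme for glutamate and proline, was lowest in the middle window and was called from middle to late (0.34 ± 0.07) but not from early to late (0.14 ± 0.07, adjusted p = 0.2). Of its 4 probe sets, 1 rose by 0.30 ± 0.10 (adjusted p = 0.0418) and the others were at 0.22, 0.24 and -0.18. For Qars the log2 ratio was -0.01 at 0 h, 0.01, 0.04, 0.0014 and -0.04 from 0.5 to 2.0 h, -0.17, -0.18, -0.24 and -0.17 from 2.5 to 4.0 h and -0.12, -0.15, -0.05 and -0.17 from 4.5 to 6.0 h. Qars, the glutaminyl enzyme, had every late array below every early one, a pattern of 11.1% of all genes, and the difference of -0.13 ± 0.05 missed the threshold (adjusted p = 0.0823). It passed after quantile normalization (-0.16, adjusted p = 0.0438) and without probe sets that have no array at a ratio of exactly 1 (-0.16, adjusted p = 0.0471), and over all alternatives its adjusted p ran from 0.0438 to 0.733. From early to middle Qars fell by 0.19 ± 0.05.

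Groupings by role gave the following counts for late minus early, where over all genes 11.7% were higher, 9.29% were lower and the median was 0.019. Of the 7 measured catalytic members of the multisynthetase complex (Eprs, Iars, Kars, Lars, Mars1, Qars and Rars) 5 rose (11.7% of all genes), with a median of 0.42. Of 12 cytosolic genes listed as ATF4 targets from general knowledge 11 rose (11.7% of all genes), with Eprs as the exception and a median of 0.62, beside 16 of all 19 cytosolic genes. Class I enzymes, which share a nucleotide-binding fold, rose in 11 of 19 cases and class II enzymes in 12 of 16 (11.7% of all genes), with medians of 0.31 and 0.48. The fused glutamyl and prolyl enzyme Eprs was counted in class I alone, while the prolyl gene Pars2 was counted in class II. No test of the groupings against each other was made.

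Promoter sequences were examined because most cytosolic members moved together. RefSeq windows of 300 bases (GRCm38.p6, from 250 bases before to 50 after the annotated start) were at hand for 26 of the 35 genes, and for Cars, Hars, Hars2, Lars, Nars, Pars2, Rars, Vars and Wars none was used. The core of the C/EBP-ATF response element, TGATGNAA on either strand, occurred in the windows of 5 of 12 cytosolic and 0 of 14 mitochondrial genes, and in 4.51% of 27025 genes. The E-box CACGTG, which reads the same on both strands and is the site of Myc and related factors, occurred in 4 of 12 cytosolic and 1 of 14 mitochondrial genes, and in 8.09% of all genes. Split by the expression result, the response element core was in 5 of 14 genes that rose and 0 of 12 that were not called. The E-box gave the same numbers, 5 of 14 and 0 of 12. This split largely repeats the split by compartment, since the only cytosolic genes among the 12 not called were Eprs, Farsa and Qars. Of these, Eprs had 1 probe set called higher and Farsa had probe sets called in both directions. Whether either motif goes with the rise within a compartment was not tested. A match is a string of letters and no measured binding, and no match says nothing about a site elsewhere.

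The windows below run from 150 bases before to 30 after the start, 5′ to 3′ on the strand of the gene, with matches to either motif in capitals. They are the 7 genes with the largest rises that had a window, then Aars, chosen for its 3 matches after these were seen. Vars2 and Farsa follow, whose averaged changes were near 0. The probe sets of Farsa moved apart, so it cannot be taken as an unchanged gene. TTGCATCA and TTTCATCA are the response element core read on the opposite strand.
Yars2 (chr16:16302815-16302994, plus strand): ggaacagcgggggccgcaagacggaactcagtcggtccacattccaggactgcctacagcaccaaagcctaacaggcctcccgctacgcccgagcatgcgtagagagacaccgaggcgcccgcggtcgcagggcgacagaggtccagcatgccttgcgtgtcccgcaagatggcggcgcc
Mars1 (chr10:127311757-127311936, minus strand): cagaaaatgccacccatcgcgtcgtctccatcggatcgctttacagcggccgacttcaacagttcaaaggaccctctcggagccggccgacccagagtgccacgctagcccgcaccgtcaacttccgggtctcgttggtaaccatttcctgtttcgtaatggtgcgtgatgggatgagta
Tars (chr15:11399629-11399808, minus strand): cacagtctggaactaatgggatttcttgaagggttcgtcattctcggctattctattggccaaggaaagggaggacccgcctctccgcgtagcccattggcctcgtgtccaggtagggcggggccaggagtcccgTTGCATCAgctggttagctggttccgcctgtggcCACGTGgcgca
Gars (chr6:55037851-55038030, plus strand): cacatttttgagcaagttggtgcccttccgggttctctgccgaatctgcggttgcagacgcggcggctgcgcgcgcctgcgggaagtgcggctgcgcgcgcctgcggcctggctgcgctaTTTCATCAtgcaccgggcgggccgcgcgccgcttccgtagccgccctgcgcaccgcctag
Yars (chr4:129189753-129189932, plus strand): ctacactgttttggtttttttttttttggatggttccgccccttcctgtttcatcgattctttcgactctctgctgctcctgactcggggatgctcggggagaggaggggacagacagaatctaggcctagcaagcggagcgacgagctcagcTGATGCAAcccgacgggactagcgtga
Farsb (chr1:78488868-78489047, minus strand): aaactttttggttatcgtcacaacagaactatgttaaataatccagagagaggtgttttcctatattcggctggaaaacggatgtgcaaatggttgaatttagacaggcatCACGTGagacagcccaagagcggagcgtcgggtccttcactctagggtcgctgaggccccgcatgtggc
Iars (chr13:49681980-49682159, plus strand): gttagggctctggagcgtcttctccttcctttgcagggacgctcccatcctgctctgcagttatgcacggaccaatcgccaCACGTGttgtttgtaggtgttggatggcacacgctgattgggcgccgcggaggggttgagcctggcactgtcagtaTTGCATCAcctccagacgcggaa
Aars (chr8:111033692-111033871, plus strand): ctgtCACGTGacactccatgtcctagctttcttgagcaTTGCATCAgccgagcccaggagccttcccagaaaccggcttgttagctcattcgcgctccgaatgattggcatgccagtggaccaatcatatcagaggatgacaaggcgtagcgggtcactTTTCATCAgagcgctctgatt
Vars2 (chr17:35667563-35667742, minus strand): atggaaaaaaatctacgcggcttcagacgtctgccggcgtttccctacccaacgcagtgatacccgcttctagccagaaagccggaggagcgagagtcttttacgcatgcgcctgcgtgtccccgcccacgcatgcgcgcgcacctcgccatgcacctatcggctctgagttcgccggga
Farsa (chr8:84856836-84857015, plus strand): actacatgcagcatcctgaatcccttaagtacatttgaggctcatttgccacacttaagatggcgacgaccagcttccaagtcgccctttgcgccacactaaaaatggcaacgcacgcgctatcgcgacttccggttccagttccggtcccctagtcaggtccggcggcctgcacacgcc

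Positions are those of a match's first base on the strand of the gene, negative before the start. The response element core lay at -15 in Tars, at -30 in Gars, at 8 in Iars and at 4 in Yars, and Aars held copies at -112 and 10. Tars, Iars and Aars carried an E-box as well, at 20, -69 and -146. Farsb had an E-box alone, at -39. Yars2 and Mars1, the genes with the largest mitochondrial and cytosolic rises, held neither string in the window, nor did Vars2 and Farsa. The remaining member with an E-box was the mitochondrial gene Ears2, at 22.

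Mitochondrial synthetases were a mixed group, and the largest rise of all members was among them. Yars2 stood at -0.38 on the 0 h array, at -0.35, -0.11, -0.20 and -0.03 on the 4 early arrays, at -0.37, -0.06, 0.08 and -0.07 on the 4 middle ones and at 0.36, 0.74, 0.68 and 0.93 on the 4 late ones (log2 ratios). Yars2, the mitochondrial tyrosyl enzyme, rose by 0.85 ± 0.12 (adjusted p = 1.54e-04) and was 2.07-fold over 0 h in the late window. Both of its probe sets rose, by 0.89 and 0.80. Its middle arrays overlapped with the early ones (0.06 ± 0.12 between these windows), and it rose from the middle to the late window by 0.78 ± 0.12. Pars2 had log2 ratios of -0.20 at 0 h, -0.28, -0.59, -0.76 and -0.58 in the early window, 0.02, -0.07, -0.09 and 0.16 in the middle window and 0.10, 0, 0.24 and 0.06 in the late window. The prolyl enzyme, measured by a single probe set, was lowest at 1.5 h and rose by 0.65 ± 0.09 (adjusted p = 1.81e-04) from early to late. It had risen by 0.56 ± 0.09 from early to middle, and its middle and late arrays overlapped.

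In Tars2 the log2 ratios were -0.05 at 0 h, -0.39, -0.40, -0.33 and -0.25 early, -0.16, -0.21, 0.03 and 0.02 in the middle window and 0.02, 0.09, 0.25 and 0.23 late. For Rars2 the log2 ratio was -0.04 at 0 h, -0.16, -0.16, -0.16 and -0.30 from 0.5 to 2.0 h, -0.12, -0.12, 0 and 0.18 from 2.5 to 4.0 h and 0.28, 0.09, 0.37 and 0.19 from 4.5 to 6.0 h. The threonyl enzyme rose by 0.49 ± 0.07 (adjusted p = 2.37e-04) and the arginyl enzyme by 0.43 ± 0.08 (adjusted p = 0.00107), each with late arrays clear of the early ones. Hars2 stood at 0.01 on the 0 h array, at -0.07, -0.08, -0.29 and -0.40 on the 4 early arrays, at -0.26, -0.40, -0.03 and -0.08 on the 4 middle ones and at 0.16, 0.05, 0.16 and 0.19 on the 4 late ones (log2 ratios). Nars2 had log2 ratios of -0.46 at 0 h, -0.42, -0.31, -0.23 and -0.29 in the early window, -0.31, -0.28, -0.08 and 0.10 in the middle window and 0.02, -0.08, 0.04 and 0.14 in the late window. Hars2, the histidyl enzyme, was lowest at 2.0 and 3.0 h and rose by 0.35 ± 0.09 (adjusted p = 0.0103) to the late window. Of its probe sets, that at 0.40 was called and that at 0.30 was not, and they correlated at 0.22 over the arrays. The asparaginyl enzyme rose by 0.34 ± 0.08 (adjusted p = 0.00917), with probe sets at 0.62 and 0.06, of which the first alone was called. In Ears2 the log2 ratios were -0.10 at 0 h, -0.15, -0.14, -0.05 and -0.04 early, -0.10, 0.04, -0.10 and -0.12 in the middle window and 0.05, -0.01, 0.14 and 0.27 late. The glutamyl enzyme had the smallest called rise, 0.21 ± 0.07 (adjusted p = 0.0338). Of its 4 probe sets 1 was called, at 0.48 ± 0.10, with the others at -0.01, 0.03 and 0.33. The Ears2 call was lost with 1 probe set per gene and without the 0.5, 1.0, 5.5 or 6.0 h array, with an adjusted p of up to 0.121.

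The other 9 mitochondrial genes were not called from early to late. For Mars2 the log2 ratio was -0.33 at 0 h, -0.62, -0.38, -0.10 and 0.08 from 0.5 to 2.0 h, -0.27, -0.13, -0.14 and -0.22 from 2.5 to 4.0 h and 0.13, -0.13, -0.11 and -0.11 from 4.5 to 6.0 h. The methionyl enzyme was at 0.20 ± 0.12 (adjusted p = 0.277), with a wide early window, and passed without the 2.0 h array (0.31, adjusted p = 0.0463). Iars2 stood at 0.31 on the 0 h array, at 0.27, 0.04, -0.12 and -0.12 on the 4 early arrays, at -0.23, -0.10, -0.26 and -0.16 on the 4 middle ones and at -0.12, -0.10, 0.09 and 0.13 on the 4 late ones (log2 ratios). The isoleucyl enzyme had its highest values at 0 and 0.5 h, passed as a smooth course and was at -0.01 ± 0.09 between the windows. Fars2 had log2 ratios of -0.11 at 0 h, 0.03, 0.09, 0.07 and 0.06 in the early window, -0.18, -0.29, -0.33 and -0.23 in the middle window and -0.04, 0.0028, -0.04 and 0.16 in the late window. The phenylalanyl enzyme fell from early to middle (-0.32 ± 0.06), rose from middle to late (0.28 ± 0.06) and was at -0.04 ± 0.06 from early to late. The alanyl, cysteinyl, leucyl, seryl, valyl and tryptophanyl enzymes lay between -0.02 (Sars2) and 0.08 (Aars2), and their values follow with their cytosolic partners.

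Enzymes for the same amino acid in both compartments can be set side by side in 17 pairs, in which Eprs and Fars2 each stand in 2. In 9 pairs only the cytosolic gene was called from early to late, in 5 both were, in 2 only the mitochondrial gene was and in 1 neither was. Differences within a pair were not tested, and the values are a description. The pairs in which both rose were those of histidine, asparagine, arginine, threonine and tyrosine. In Wars2 the log2 ratios were 0.02 at 0 h, 0.11, 0.10, 0.07 and -0.10 early, -0.07, -0.17, -0.12 and -0.16 in the middle window and 0.07, 0.01, 0.17 and 0.0025 late. For Lars2 the log2 ratio was 0.16 at 0 h, -0.08, 0.13, 0.02 and 0.01 from 0.5 to 2.0 h, -0.21, -0.10, -0.02 and 0.05 from 2.5 to 4.0 h and 0.13, -0.02, 0.02 and -0.07 from 4.5 to 6.0 h. From early to late Wars2 was at 0.02 ± 0.06 and Lars2 at -0.01 ± 0.07, and the late arrays of both overlapped with the early ones, while Wars and Lars rose. Aars2 stood at 0.06 on the 0 h array, at -0.03, -0.09, -0.05 and -0.11 on the 4 early arrays, at -0.12, 0.13, 0.04 and 0.04 on the 4 middle ones and at 0.0043, 0.08, 0.02 and -0.07 on the 4 late ones (log2 ratios). Sars2 had log2 ratios of 0.19 at 0 h, 0.24, -0.05, 0.10 and -0.05 in the early window, -0.03, 0.24, -0.02 and -0.03 in the middle window and 0.14, -0.13, 0 and 0.15 in the late window. The alanyl partners were at 0.47 ± 0.09 for Aars and 0.08 ± 0.06 for Aars2, and the seryl partners at 0.49 ± 0.09 for Sars and -0.02 ± 0.09 for Sars2. In Cars2 the log2 ratios were -0.04 at 0 h, -0.02, -0.04, 0.08 and 0.12 early, -0.06, -0.04, -0.11 and -0.15 in the middle window and 0.02, 0.06, 0.03 and 0.06 late. For Vars2 the log2 ratio was 0.12 at 0 h, 0.19, -0.03, 0.05 and -0.06 from 0.5 to 2.0 h, -0.10, -0.06, -0.07 and -0.12 from 2.5 to 4.0 h and 0.0019, 0.06, 0.05 and 0.02 from 4.5 to 6.0 h. Cars2 was at 0.01 ± 0.05 against 0.31 ± 0.09 for Cars, and Vars2 at -0.0011 ± 0.06 against 0.35 ± 0.07 for Vars. Late arrays of Aars2, Sars2, Cars2 and Vars2 overlapped with their early arrays. The arginyl pair was at 0.42 ± 0.08 and 0.43 ± 0.08.

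**Figure D3:**
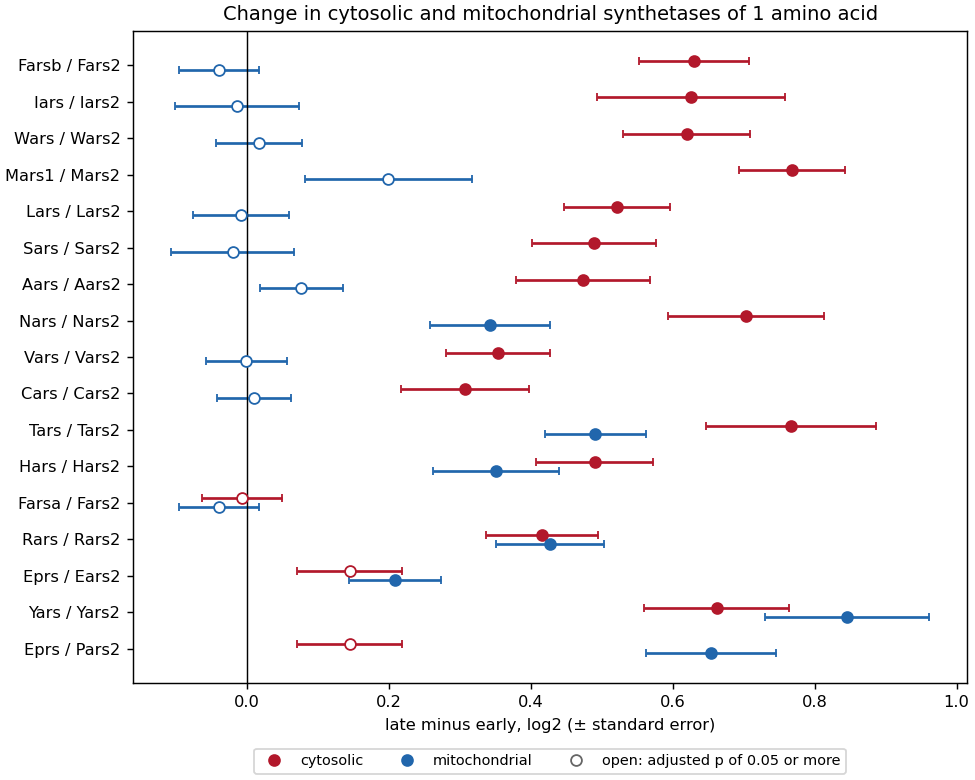
Late minus early change (horizontal axis, log2, with standard error as bars) for the cytosolic (red) and mitochondrial (blue) synthetase of each pair, ordered by the difference within the pair; filled points passed an adjusted p of 0.05. The cytosolic gene has the larger change in 13 of 17 pairs, and the exceptions are the tyrosine, arginine and both Eprs pairs.

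How closely the members followed each other was described by the Pearson correlation of each gene with the mean of the other cytosolic synthetases over the 13 arrays. These values share arrays and carry no test. The share of all genes above 0.8 was not counted, so the counts below do not set the synthetases apart from other genes. They exceeded 0.8 for 15 of 19 cytosolic genes, with Gars (0.99), Wars (0.97) and Yars (0.97) at the top. Vars (0.51), Eprs (0.45), Farsa (0.10) and Qars (-0.56) stood apart. Among the 16 mitochondrial genes 4 exceeded 0.8: Yars2 (0.89), Tars2 (0.87), Nars2 (0.83) and Ears2 (0.81). Of all genes outside the family, the 10 most like the cytosolic mean had correlations of 0.976 to 0.983. They were Pno1, a ribosome assembly factor, Nsun2, an RNA methyltransferase that acts on tRNA, Wdr77, Phgdh, the first enzyme of serine synthesis, Bccip, Mtap, an enzyme of methionine salvage, Ncl (nucleolin), Wdr46, Noc4l and Mybbp1a.

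The other genes of tRNA charging were taken from lists of partners. Of 14 synthetase partners 8 rose from early to late and 0 fell, with a median of 0.34, where 11.7% of all genes were higher and 9.29% lower. The 6 that did not pass were Aimp1, Dtd1, Gatb, Gatc, Prorsd1 and Tarsl2, which are named after their values were seen. Of the scaffold genes of the complex, Eef1e1 rose by 0.90 ± 0.14 and Aimp2 by 0.70 ± 0.08, and Aimp1 was at 0.11 ± 0.06. Differences among them were not tested. Eef1e1 had log2 ratios of -1.17 at 0 h, -1.18, -1.05, -0.68 and -0.43 from 0.5 to 2.0 h, -0.32, 0.02, 0.09 and 0 up to 4.0 h and 0.13, 0.12, -0.01 and 0.004 thereafter. From 3.0 h on it stayed between -0.01 and 0.13, while the cytosolic synthetase mean was higher on every late array than on any middle array. Xpot, the exporter of tRNA from the nucleus, rose by 0.61 ± 0.08 and Trnt1, which adds the CCA end to tRNA, by 0.60 ± 0.08. Mitochondria make glutaminyl-tRNA through an amidotransferase, and of its subunits Qrsl1 rose by 0.61 ± 0.09 while Gatb was at -0.06 ± 0.07 and Gatc at 0.10 ± 0.06. Tarsl2, a threonyl synthetase gene that the naming rule leaves out, was at -0.28 ± 0.13 from early to late and fell from early to middle (-0.64 ± 0.13).

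Of 9 genes of translation elongation factors 4 rose and 0 fell, with a median of 0.12, where 11.7% of all genes were higher and 9.29% lower. Gfm1 (0.53 ± 0.09), Tsfm (0.29 ± 0.06) and Tufm (0.20 ± 0.06) are mitochondrial factors, and Eef1d (0.32 ± 0.06) is a cytosolic one. Eef1a1, a cytosolic carrier of charged tRNA that did not pass and was named after its value was seen, was at 0.05 ± 0.05. For tRNA maturation 19 of 31 genes rose and 1 fell, with a median of 0.26, again beside 11.7% and 9.29% of all genes. Trmt61a (1.29 ± 0.25), Rpp40 (0.86 ± 0.10), Nsun2 (0.86 ± 0.10) and Rpp14 (0.83 ± 0.10) had the largest rises. The gene that fell was Maf1 (-0.32 ± 0.06), a repressor of the polymerase that transcribes tRNA genes.

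ATF4 and its amino acid response genes were examined beside the synthetases. From early to late 11 of 26 rose and 4 fell, with a median of 0.30, where 11.7% of all genes were higher and 9.29% lower. Asns, the asparagine synthetase that makes the amino acid used by Nars, had log2 ratios of -1.25 at 0 h, -1.60, -1.28, -0.82 and -0.48 from 0.5 to 2.0 h, -0.33, -0.09, 0.01 and 0.03 up to 4.0 h and 0.37, 0.43, 0.65 and 0.56 thereafter. Its lowest array was at 0.5 h, as in Nars, Tars and Iars, and it rose by 1.55 ± 0.18 from early to late. Atf4 itself was called early, with a rise of 0.65 ± 0.10 over 0 h, and was at -0.05 ± 0.06 from early to late. Ddit3 rose by 1.39 ± 0.35 in the early window and then fell by 1.07 ± 0.22. Atf3, also on the list, went from 0 h to the early window by 2.35 ± 0.49 and from early to middle by -2.59 ± 0.31. Myc, which is known to act on many growth genes, rose by 2.34 ± 0.25 in the early window and fell by 0.71 ± 0.16 from early to late, and it stayed above its 0 h value on all 12 later arrays. The early comparisons rest on the single 0 h array, and the order of these genes and the synthetases in time was not tested.

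**Figure D4:**
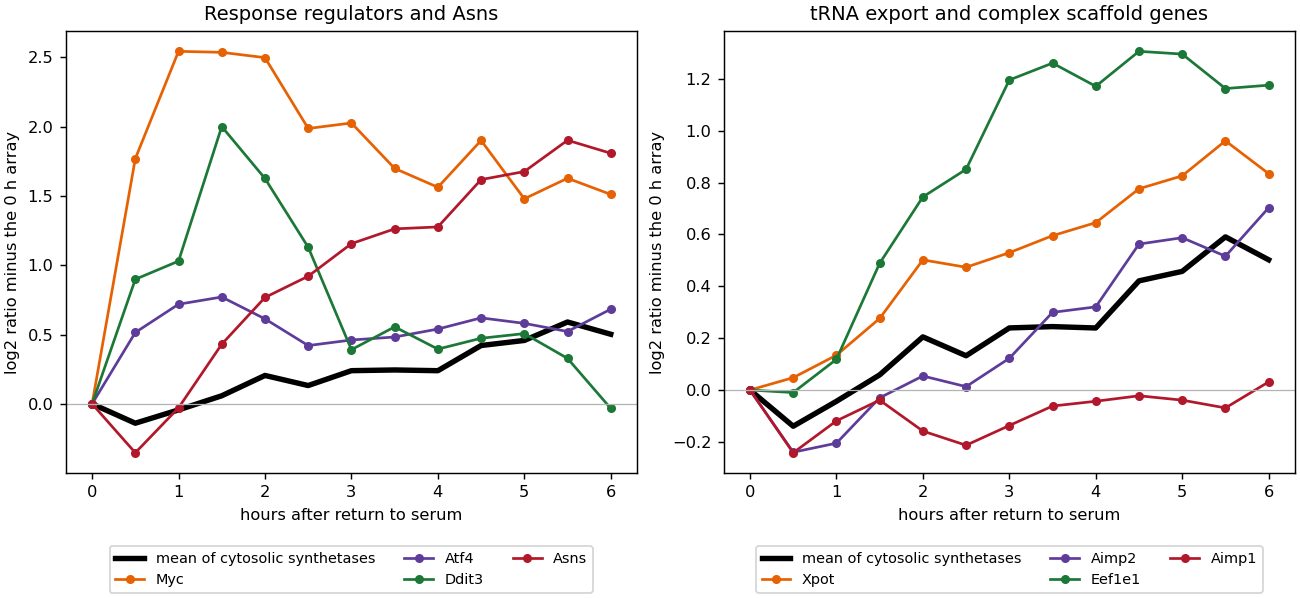
Log2 ratio minus that of the 0 h array (vertical axis) against hours after return to serum for the mean of the 19 cytosolic synthetases (black) beside Myc, Atf4, Ddit3 and Asns (left) and Xpot, Aimp2, Eef1e1 and Aimp1 (right); each point is 1 array. Myc, Atf4 and Ddit3 are above their 0 h value from 0.5 h on apart from Ddit3 at 6.0 h, and Asns and the synthetase mean are below theirs at 0.5 h.

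Against the 0 h array, 14 of 35 synthetases were higher in the late window and 0 were lower, where 8.8% of all genes were higher and 9.9% lower (18.7% called). They were 12 of 19 cytosolic genes and, of the mitochondrial ones, Nars2 and Yars2. This comparison rests on the single 0 h array. Most of the called genes had larger differences here than from early to late, since their 0 h value was below their early mean. They were Aars, Hars (0.74 ± 0.13), Iars, Nars, Rars (0.67 ± 0.12), Sars, Tars, Nars2 and Yars2. For Farsb, Gars, Mars1, Wars and Yars the difference was smaller here. Among the cytosolic genes, Cars, Kars, Lars and Vars passed from early to late but not against 0 h.

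Oscillation, the question of the study, was tested with a wave of 2 h on top of a smooth trend. By limma 0 of 35 synthetases passed, as did 0% of all 18193 genes. At an unadjusted p under 0.05 the counts were 0 of 35 members and 3.96% of all genes. The largest F among the members was that of Tars2 (F = 2.44, adjusted p = 0.998). Waves with periods of 1.5, 2.5 and 3 h likewise gave 0 calls among the members.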

How the data were processed

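RNA of 13 C2C12 flasks, 1 per time point, was measured on Affymetrix arrays. The deposited values are ratios per probe set. The submitters' processing notes name RMA, and the denominator of the authors' ratios is not stated in any label or header used here. Most probe sets have an array at a ratio of exactly 1, and 6069 (13.48%) do not, 7 of them for synthetases. From the ratios, log2 values were averaged over the probe sets naming 1 gene, and 64 array controls were left out, as was 1 probe set naming Aars and a second gene. Window means were fitted with limma 3.58.1 (R 4.3.3, Python 3.11.15, pandas 2.3.3) over all 18193 genes (median residual SD 0.102), with a natural spline of 4 degrees of freedom for the smooth course, and for oscillation a wave of 2 h beside a spline of 3 degrees of freedom. The threshold was a Benjamini-Hochberg adjusted p of 0.05, two-sided. The fits were tried on simulated data with changes of 0.5 and 1 on the log2 scale in the late window. Late minus early recovered 89% and 100% of these, and the smooth course 34% and 74%. A wave of 2 h with an amplitude of 0.5 was recovered in 96.5%. The simulated noise was independent between arrays, so it cannot show the error rate on this time series.

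The members and lists were chosen with earlier results of these data known. Values on every array are given for genes called from early to late or in the smooth course and for pairs with a called gene. Alternatives covered normalization between arrays, the variance prior, probe set choice, a minimum change, other windows, splines and periods, and each array left out. A fit over single probe sets was added after seeing the data. RefSeq promoters come from GRCm38.p6 and were matched by gene identifier, with 26 of 35 found.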

Additional observations from a re-analysis of the deposited data

Results flagged for a closer look

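In windows of 4 arrays, an array is named here when its gap to the nearest other array passes Dixon's critical value as a share of the window's range, which chance does in about 1 of 20 windows. Of 105 windows of the 35 genes 6 did. In the early window the 2.0 h array stood apart for Mars1 (-0.23) and Rars2 (-0.30). In the middle window the 3.5 h array was low for Qars (-0.24) and the 3.0 h array high for Sars2 (0.24). In the late window the 4.5 h array was high for Mars2 (0.13) and the 5.5 h array for Yars (0.38). All values are log2 ratios, with no replicate array at any of these times.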

How the results depend on the processing

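The late minus early count of 23 was 22 to 26 with all arrays kept, apart from a minimum log2 change of 0.5, which left 11. Of the 23 genes 21 stayed called in the 22 alternatives for single genes apart from that minimum, and Cars and Ears2 did not. With that minimum the count was 1 from early to middle and 2 from middle to late. Leaving out 1 array at a time gave 0 to 1 calls early minus 0 h, 6 to 17 middle minus early, 8 to 18 late minus middle, 21 to 24 late minus early, 26 to 27 for the smooth course and 0 for oscillation. A straight line in time gave 21. The share of all genes called is not given for these settings, so the shifts in count may not be particular to the synthetases. The fit over single probe sets, chosen after seeing the data, gave 26 genes with at least 1 called probe set. Of 72 probe sets 40 were called, 38 of them higher, against 15.3% of all 45037 probe sets called. Genes with several probe sets had more chances to enter this count. Qars entered it through a fall (-0.22), and Farsa was called in both directions. The setting with 1 probe set per gene took that set by its identifier alone and not by how well it measured the gene. With it Farsa was called at -0.39 (adjusted p = 0.0401), while another probe set of Farsa was at 0.33. For Ears2 the set taken was not the called one.

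The late minus early changes that turned direction belong to genes that were not called. They were Cars2 (-0.0025) and Vars2 (0.0061) after quantile normalization, and Eprs (-0.183), Iars2 (0.0753), Vars2 (0.0851) and Wars2 (-0.044) with 1 probe set per gene. They were Farsa (0.0028) and Wars2 (-0.0312) with the early window ended at 1.5 h, and Iars2 (0.0252) and Vars2 (0.0099) with the late window begun at 5.0 h, which equal leaving out the 2.0 h and 4.5 h arrays. With 1 array left out, Cars2 ran from -0.0163 to 0.0389, Farsa from -0.0388 to 0.026, Iars2 from -0.0603 to 0.0719, Lars2 from -0.0476 to 0.028, Sars2 from -0.0587 to 0.0403, Vars2 from -0.0343 to 0.0496 and Wars2 from -0.0312 to 0.0377. The cause was not tested. No paired analysis was possible because each time point has 1 array and the labels give no replicate numbers. Without the 0 h array there is no early minus 0 h value. Signal over background is unknown for ratios, so how dim a probe set was could not be read.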
